A study of Mus musculus with 8 samples.

Results

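The loci of 5 genes of fatty acid use, Ppara, Ppargc1a, Cpt1a, Angptl4 and Pank1, were examined for H3K27ac, the acetylation of histone H3 at lysine 27, which marks promoters and enhancers in use. The mark was mapped by chromatin immunoprecipitation with sequencing in crypts of the mouse small intestine. Each locus was a fixed window of the mouse genome, build mm9, and every peak that overlapped the window by 1 bp or more was taken. The 5 windows held 122 of the 117035 peaks of 4 peak lists, which fell into 42 of 43091 merged regions. The windows had been selected on the peak numbers, covered lengths and scores of these same lists, so these values are a description and were not tested. With 2 libraries in each group, a two-sided exact permutation test could not have gone below p = 0.333.

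Crypts came from male and female mice aged 6 to 12 weeks of the strains Lgr5EGFP-IRES-CreERT2/+ and C57BL/6J; which strain gave which pool is not stated. Fed mice had free access to chow and water over 24 h, and fasted mice had water but no food for 24 h. Mice of both groups were housed singly. Crypts of both groups were isolated in solutions with 100 nM trichostatin A, an inhibitor of histone deacetylases, and then suspended in medium that held the same inhibitor, the TGF-β receptor kinase inhibitor SB431542, the compound Y-27632 and N-acetylcysteine amide. Each library was made from the pooled crypts of 4 animals, and the libraries are named by their label numbers as fed 1, fed 4, fasted 2 and fasted 5. Whole crypts hold stem cells, progenitors and secretory cells, so a difference in the mix of cells and a difference in acetylation within a cell type cannot be told apart.

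PPARα, the product of Ppara, is a nuclear receptor that binds fatty acids and, paired with a retinoid X receptor, turns on genes for the uptake and oxidation of fat. Its activity is best known from the fasted liver, and it is also present in the intestinal epithelium. PGC-1α, encoded by Ppargc1a, is a coactivator of PPARs and other receptors that promotes mitochondrial and oxidative genes. Cpt1a, Angptl4 and Pank1 encode proteins that act further down: the enzyme that commits long-chain fatty acids to mitochondrial import, a secreted inhibitor of lipoprotein lipase, and the enzyme that starts the synthesis of coenzyme A.

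The windows were chromosome 15, 85545000 to 85640000 (95 kb), for Ppara, and chromosome 5, 51825000 to 51970000 (145 kb), for Ppargc1a. That of Cpt1a was chromosome 19, 3300000 to 3390000 (90 kb), that of Angptl4 was chromosome 17, 33890000 to 33935000 (45 kb), and that of Pank1 was chromosome 19, 34880000 to 34975000 (95 kb). The gene table at hand is for another build, GRCm38, so peaks could not be placed relative to start sites, exons or introns. In that table the nearest protein-coding neighbours are Wnt7b and Cdpf1 for Ppara, Adgra3 and Dhx15 for Ppargc1a, and Mrpl21 and Tesmin for Cpt1a. They are Rab11b and Kank3 for Angptl4, and Slc16a12 and Kif20b for Pank1. Angptl4 itself spans 6.7 kb there, a small part of its window, so peaks in that window may belong to its neighbours. Ppargc1a spans 661.6 kb there, more than its window can hold.

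RefSeq promoters (GRCm38.p6) were matched for 4 of the 5 genes, all but Angptl4. The 250 bases before the start of each gene are shown because the promoters differ in base composition, with CpG dinucleotides in capitals. Whether base composition is related to H3K27ac was not tested, and peaks could not be placed on these promoters.
Ppara (chromosome 15, plus strand): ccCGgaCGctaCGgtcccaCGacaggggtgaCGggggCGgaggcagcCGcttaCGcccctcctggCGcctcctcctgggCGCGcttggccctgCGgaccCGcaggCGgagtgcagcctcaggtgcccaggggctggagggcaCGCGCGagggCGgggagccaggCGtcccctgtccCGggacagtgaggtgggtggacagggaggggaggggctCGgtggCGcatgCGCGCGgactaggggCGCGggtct
Cpt1a (chromosome 19, plus strand): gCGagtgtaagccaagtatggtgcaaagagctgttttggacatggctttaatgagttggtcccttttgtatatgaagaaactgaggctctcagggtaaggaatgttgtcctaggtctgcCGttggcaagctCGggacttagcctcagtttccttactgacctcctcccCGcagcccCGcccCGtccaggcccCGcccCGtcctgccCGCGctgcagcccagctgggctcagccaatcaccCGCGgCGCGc
Ppargc1a (chromosome 5, minus strand): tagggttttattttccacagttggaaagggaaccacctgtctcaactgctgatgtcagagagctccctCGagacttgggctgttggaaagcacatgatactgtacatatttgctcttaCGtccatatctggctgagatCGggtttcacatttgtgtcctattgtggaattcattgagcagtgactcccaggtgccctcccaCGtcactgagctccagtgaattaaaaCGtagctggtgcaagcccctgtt
Pank1 (chromosome 19, minus strand): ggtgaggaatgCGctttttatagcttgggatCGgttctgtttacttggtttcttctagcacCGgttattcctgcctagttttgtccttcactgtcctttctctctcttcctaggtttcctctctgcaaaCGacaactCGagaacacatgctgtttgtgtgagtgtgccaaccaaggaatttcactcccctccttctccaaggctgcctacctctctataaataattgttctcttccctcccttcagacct
The Ppara promoter held 27 CpGs and that of Cpt1a 14, against 5 each in those of Ppargc1a and Pank1, where the median of all 32851 RefSeq promoters was 6. A second listed start of Pank1 had 7 CpGs in the same length. GC content was 76.4% for Ppara, 59.6% for Cpt1a, 48.0% for Ppargc1a and 46.4% for Pank1. The PPAR response element, a direct repeat of AGGTCA with any single base between the repeats, searched on both strands, matched none of these sequences and 0.0335% of all promoters. Its single repeat AGGTCA, which lies within that element, matched the Cpt1a promoter and 14% of all promoters. No match says only that these letters are not in this window.

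Depth is unknown because the files hold no read counts, and the lists differed in size. Fed 1 and fed 4 had 27640 and 15504 peaks over 48.8 and 21.9 Mb, and fasted 2 and fasted 5 had 37974 and 35917 peaks over 99.2 and 109.1 Mb. The fasted lists therefore covered 2.95 times as many bases as the fed lists, and each locus is set beside that ratio below. Each peak carries the authors' score, given below as its percentile within its own list, the share of peaks with that score or a lower one. In fasted 5 the score 3100 is shared by 1282 peaks, which all stand at percentile 99.6 (96.0 if ties take the lower edge). As a background, the genome was divided into tiles as long as each window, and tiles with a peak in any library were kept.

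**Figure D1:**
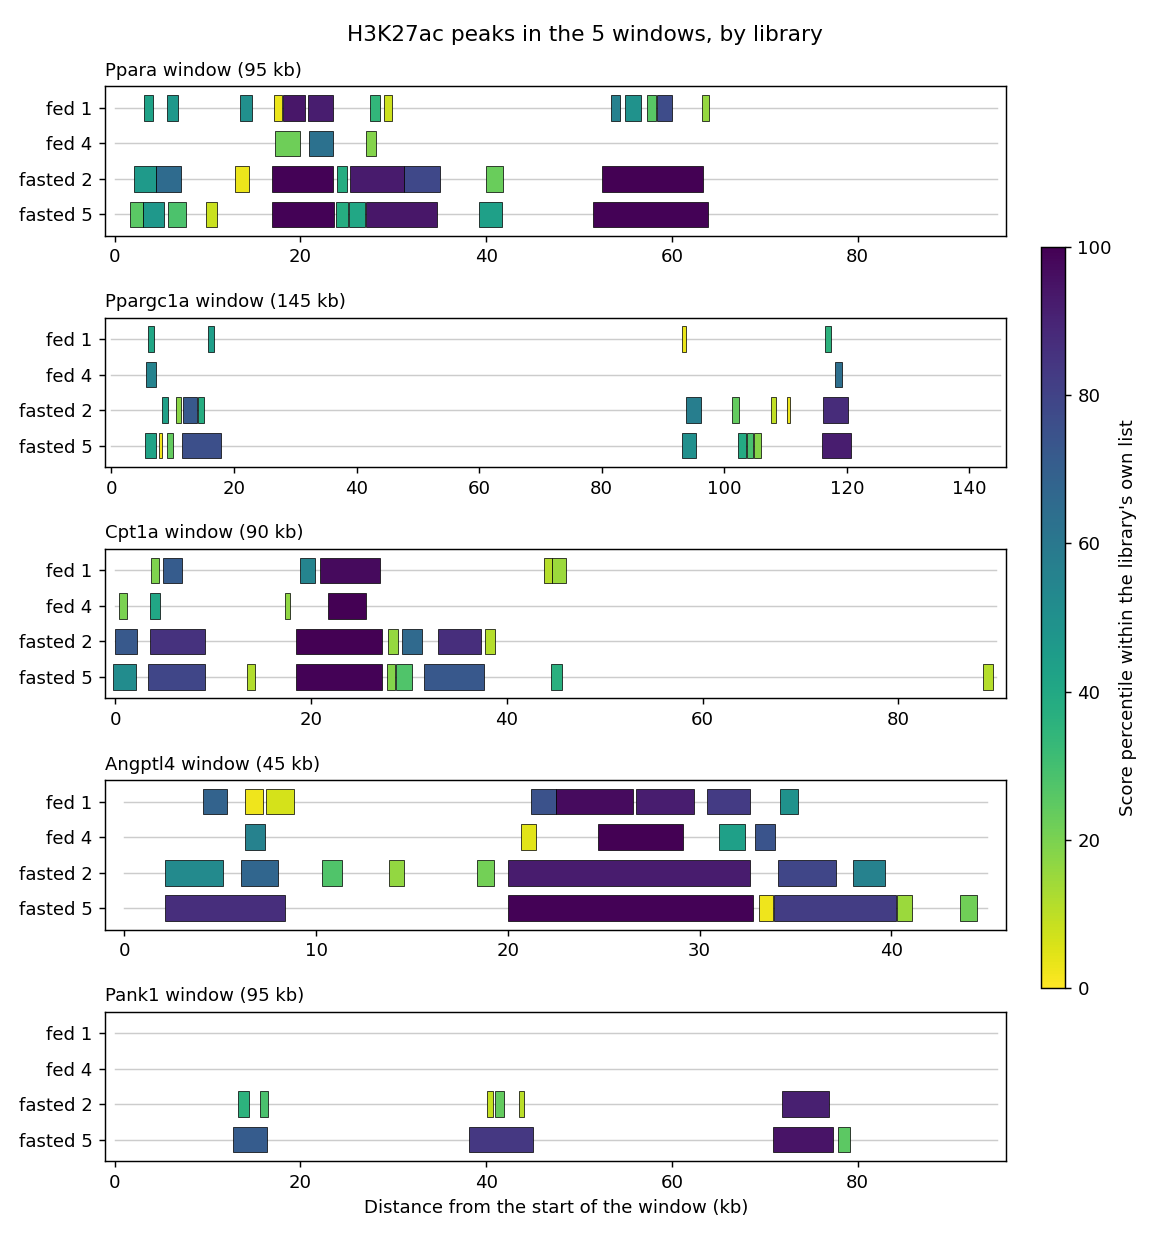
Each box is an H3K27ac peak, drawn to scale by its distance in kb from the start of the window, with a row for each library and the colour giving the score percentile within that library's list. At the centre of the Angptl4 window each fasted row holds a single wide peak where fed 1 has 4 and fed 4 has 3 narrower ones, and the fed rows are empty in the Pank1 window.

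At Ppara, the receptor gene, peaks covered 17.4 and 6.4 kb in fed 1 and fed 4, against 36.25 and 39.03 kb in fasted 2 and fasted 5. The fasted pair was higher than the fed pair without overlap, and the fed libraries differed widely from each other. The means were 11.9 ± 7.78 kb in fed and 37.64 ± 1.97 kb in fasted crypts (SD, n = 2), 3.16 times as much beside 2.95 for the whole lists. Without fed 1 the ratio was 5.88, beside 4.75 for the whole lists without it. Without fed 4 the ratio was 2.16, beside 2.14 for the whole lists. The fasted pair was the more covered pair, without overlap, in 82.8% of all 95 kb tiles, so this order was the usual one. Among those tiles with a fed peak the median ratio was 3.26, and 47.9% had a ratio as high as that of Ppara or lower. Peak number did not separate the groups: fed 1 and fed 4 had 13 and 3 peaks, fasted 2 and fasted 5 had 9 and 10. The widest fasted peaks, of 10837 bp (fasted 2) and 12434 bp (fasted 5), were far wider than the widest fed peak, of 2718 bp. Fasted peaks were also the wider over the whole lists. Median widths there were 1365 and 1189 bp in fed 1 and fed 4, and 1709 and 2077 bp in fasted 2 and fasted 5.

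Of the pair of most covered Ppara regions, the one nearer the window's start (chromosome 15, 85562027 to 85568661) had peaks in all 4 libraries: fed 1 had 3 peaks over 5968 bp, fed 4 had 2 over 5312 bp, and the fasted libraries each had a single peak, of 6506 bp (fasted 2) and 6635 bp (fasted 5). Its strongest peak stood at percentile 93.9 in fed 1 and 62.7 in fed 4, and at 99.4 and 99.6 in fasted 2 and fasted 5. Here the fed lists covered nearly the same stretch as the fasted lists and differed in rank and in how the stretch was split into peaks. The next (85596541 to 85608992) was 12452 bp wide and had no peak in fed 4. Fed 1 had 5 separate peaks there, the best at percentile 77.2, which covered 48.0% of the region. In fasted 2 it was a single peak of 10837 bp, the 46th highest-scoring of that whole list, and in fasted 5 a single peak of 12434 bp at the tied score. Between these stretches, a region of 9832 bp (85570161 to 85579992), chosen after its values were seen, was 20.8% and 11.1% covered in fed 1 and fed 4, and 97.9% and 96.0% covered in fasted 2 and fasted 5.

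At Ppargc1a, the coactivator gene, the window held few bases under peaks in fed crypts: fed 1 and fed 4 had 3.65 and 2.65 kb, where fasted 2 and fasted 5 had 14.34 and 20.03 kb. The groups did not overlap, with means of 3.15 ± 0.71 and 17.19 ± 4.02 kb (SD, n = 2), 5.46 times as much in fasted crypts. Among 145 kb tiles the order was the same in 85.2%, the median ratio was 3.35, and 77.3% of tiles with a fed peak had a ratio as high as that of Ppargc1a or lower. Peaks numbered 4 and 2 in the fed and 9 and 9 in the fasted lists. No fed peak of this window stood above percentile 63.8 of its list.

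The most covered Ppargc1a region with peaks in every library lay toward the end of the window (chromosome 5, 51940949 to 51945679). The fed 1 peak of 957 bp and the fed 4 peak of 1096 bp there lay within the wider fasted 2 and fasted 5 peaks of 4138 and 4731 bp. The fed peaks did not overlap each other. Score percentiles were 35.9 and 63.8 in fed 1 and fed 4, and 87.6 and 92.1 in fasted 2 and fasted 5, so this region ranked higher in both fasted lists. The other named region (51836520 to 51842849) had 6330 bp covered in fasted 5, 3358 bp in fasted 2, 999 bp in fed 1 and none in fed 4. A region near the start of the window (51830502 to 51832205), chosen after its values were seen, went the other way in part. It had a peak in fed 1, fed 4 and fasted 5, and none in fasted 2, whose nearest peak lay 967 bp from that of fed 4.

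At Cpt1a, which encodes carnitine palmitoyltransferase in the liver form that the gut also uses, peaks covered 12.58 and 6.34 kb in fed 1 and fed 4, against 25.12 and 28.68 kb in fasted 2 and fasted 5. The fasted pair was again the higher, 26.9 ± 2.52 against 9.46 ± 4.41 kb (SD, n = 2), a ratio of 2.84 beside 2.95 for the whole lists. The order was that of 82.7% of 90 kb tiles. Among those tiles with a fed peak the median ratio was 3.22. With only the bases inside the window the Cpt1a ratio was 2.83, and 40.1% of these tiles had that ratio or a lower one. The locus was prominent in both feeding states: its best peak was the 7th highest-scoring of all 15504 peaks in fed 4, the 121st in fasted 2 and the 701st in fed 1, and carried the tied score in fasted 5.

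That peak lay in a region of 8806 bp (chromosome 19, 3318499 to 3327304). Fed 1 covered 7692 bp of it, fed 4 3908 bp, fasted 2 all of it and fasted 5 8751 bp, so fed 1 came close to the fasted libraries and fed 4 did not. The other named region (3303371 to 3309189) was 45.6% and 17.0% covered in fed 1 and fed 4, and 96.2% and 100.0% covered in fasted 2 and fasted 5. To the right of the main peak the libraries parted. The region 3331502 to 3337713, chosen after its values were seen, had no fed peak, while a peak of 4384 bp stood at percentile 87.1 in fasted 2 and one of 6212 bp at 72.9 in fasted 5. A fed peak without a fasted counterpart was found once in the 5 windows, a peak of 584 bp in fed 4 at percentile 16.6 (3317342 to 3317925).

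At Angptl4, whose product restrains lipoprotein lipase and so the uptake of fat from circulating lipoproteins, the fed lists came closest to the fasted ones. Fed 1 and fed 4 had 15.18 and 8.64 kb under peaks, and fasted 2 and fasted 5 had 25.07 and 27.79 kb. The fasted pair was the higher here too, as in 78.3% of 45 kb tiles. The means were 11.91 ± 4.62 and 26.43 ± 1.93 kb (SD, n = 2), a ratio of 2.22, the lowest of the 4 windows with a fed peak and below the median tile's 3.05. Peak numbers overlapped, at 8 and 5 in the fed and 8 and 6 in the fasted lists. The best Angptl4 peak was the 12th highest-scoring peak of fed 4 and stood at percentile 97.1 in fed 1, above its 92.3 in fasted 2; in fasted 5 it had the tied score.

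The centre of the Angptl4 window was a single region of 12773 bp (chromosome 17, 33909984 to 33922756). It held 4 peaks over 10647 bp in fed 1 and 3 over 6583 bp in fed 4. Each fasted library had a single peak there, of 12660 bp (fasted 2) or 12773 bp (fasted 5). The fed libraries thus marked the same stretch in pieces. Fed peaks were the more split over the whole lists too. Regions found in every library held on average 2.17 and 1.74 peaks in fed 1 and fed 4, and 1.63 and 1.35 in fasted 2 and fasted 5. The other named region (33892097 to 33898798) was covered over 3596 and 1043 bp in fed 1 and fed 4, and over 4960 and 6280 bp in fasted 2 and fasted 5. A stretch to the right (33923937 to 33930293), chosen after its values were seen, was covered over 933 bp in fed 1, not at all in fed 4, and over 4691 and 6357 bp in fasted 2 and fasted 5.

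Pank1, which encodes a pantothenate kinase, was the window with no peak in either fed library. Peaks covered 9.2 kb in fasted 2 and 18.26 kb in fasted 5 (13.73 ± 6.4 kb, SD, n = 2), so the fasted libraries also differed from each other. There were 6 peaks in fasted 2 and 4 in fasted 5. The nearest fed 1 peaks lay 162.8 kb before the window and 1446.8 kb after it, and those of fed 4 lay 164.1 and 2011.8 kb away, so the stretch without fed peaks reached far beyond the window. Fasted peaks were nearer, at 57.8 and 21.1 kb in fasted 2 and 57.6 and 20.8 kb in fasted 5. Of 9789 tiles of 95 kb, 1713 (17.5%) had no fed peak and a peak in both fasted libraries, and 23 (0.235% of all) were in addition covered in each fasted library by at least the 9.2 kb of fasted 2 at Pank1. The locus was chosen with its values known, so nothing is read from that share.

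The strongest Pank1 region (chromosome 19, 34950946 to 34957411) held a peak of 4981 bp at percentile 91.3 in fasted 2 and of 6466 bp at 94.6 in fasted 5. It was the only region of the 5 windows without a fed peak to stand at percentile 75 or more in both fasted lists; over the genome 354 of 43091 regions did (0.822%). The next (34918199 to 34925075) differed between the fasted libraries: 3 small peaks over 2173 bp, the best at percentile 24.0, in fasted 2, and a single peak of 6877 bp at percentile 83.8 in fasted 5. A region near the start of the window (34892790 to 34896594) was covered over 2047 bp in fasted 2 and 3616 bp in fasted 5. In the RefSeq table, the gene for miR-107 lies within Pank1 on the same strand. Its mature 3p form is shown because Pank1 is its host gene; capitals mark the seed, bases 2 to 8, which it shares with miR-103-3p.
mmu-miR-107-3p: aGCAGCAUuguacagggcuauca

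**Figure D2:**
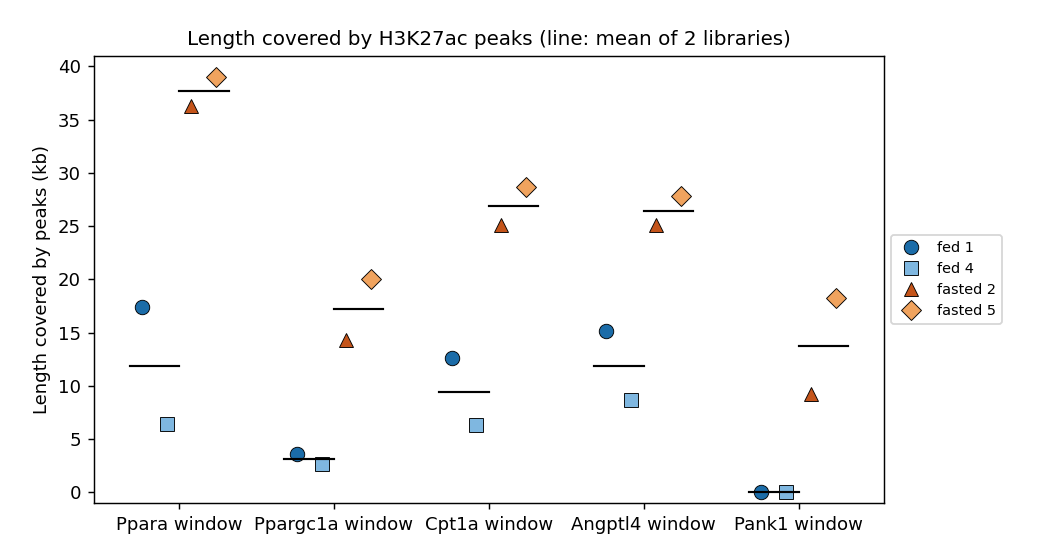
Length in kb covered by H3K27ac peaks in each window, with a point for each library and a line at the mean of the 2 libraries of a group. The fasted points lie above the fed points in every window, from 9.2 to 39.03 kb against 0 to 17.4 kb.

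Over the 5 windows together, fed 1 and fed 4 had 48.81 and 24.03 kb under peaks, and fasted 2 and fasted 5 had 109.97 and 133.79 kb. The fasted mean was 121.9 ± 16.84 kb and the fed mean 36.42 ± 17.52 kb (SD, n = 2). Their ratio of 3.35 stands beside 2.95 for all peaks. It was 5.07 beside 4.75 without fed 1, and 2.50 beside 2.14 without fed 4. The ratio of peak numbers was 1.71 both at these loci and over the lists. It was 2.75 beside 2.38 without fed 1, and 1.24 beside 1.34 without fed 4. The fasted pair was the more covered, without overlap, in 5 of 5 windows, an order that 78.3% to 85.2% of tiles of the same lengths shared. The count is therefore not a result about these genes.

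Dividing by the length of each list set the loci apart from each other. Per Mb covered in the whole list, Ppara took 357 and 292 bp in fed 1 and fed 4, and 365 and 358 bp in fasted 2 and fasted 5, a narrow range apart from fed 4; the fasted libraries were the higher pair, as in 38.5% of tiles. Cpt1a took 258, 289, 253 and 263 bp in the same order of libraries, and the groups overlapped; a higher share in the fasted pair was found in 38.4% of 90 kb tiles. Angptl4 took a larger share in the fed lists, 311 and 395 against 253 and 255, an order found in 14.1% of 45 kb tiles. Ppargc1a took a larger share in the fasted lists, 145 and 184 against 74.9 and 121, as in 40.1% of 145 kb tiles. Pank1 took 0 in both fed lists, 92.8 in fasted 2 and 167 in fasted 5. A higher share in the fasted pair was found in 38.5% of 95 kb tiles. In the fasted lists the order by mean share ran from Ppara (362) through Cpt1a (258) and Angptl4 (254), whose libraries overlapped, to Ppargc1a (164) and Pank1 (130), whose libraries overlapped. In the fed lists Angptl4 (353) and Ppara (325) overlapped each other and lay above Cpt1a (274), which lay above Ppargc1a (97.8). The windows differ in length, so this order is one of loci, not of density.

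**Figure D3:**
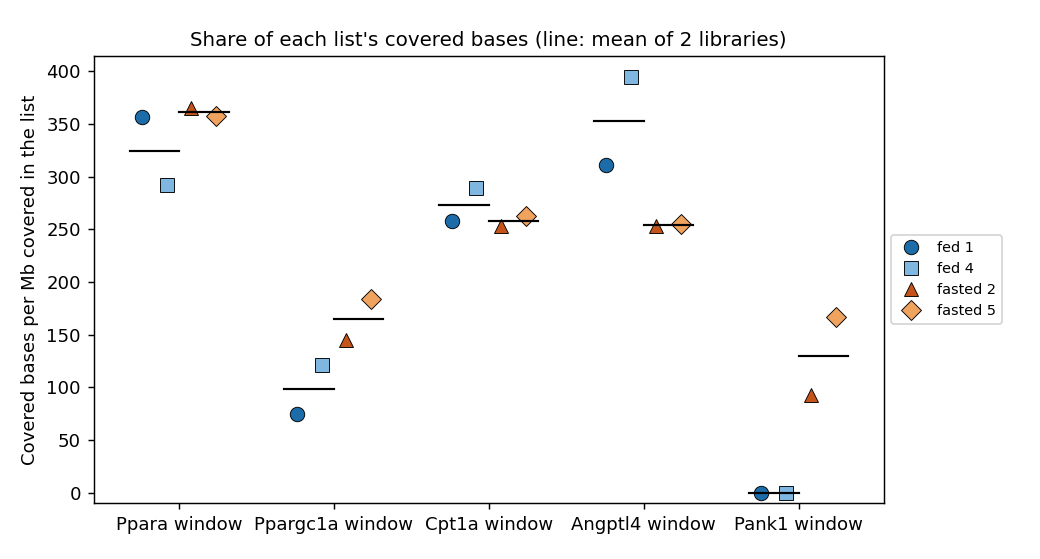
Bases covered by H3K27ac peaks in each window per Mb covered in the library's whole list, with a point for each library and a line at each group's mean. The fed points lie above the fasted points at Angptl4 (311 and 395 against 253 and 255), below them at Ppargc1a, Pank1 and, narrowly for fed 1, Ppara, and overlap them at Cpt1a.

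Relative to tiles of their own length, the Ppara, Cpt1a and Angptl4 windows were densely covered in all libraries. Angptl4 stood at percentiles 95.8 and 96.5 of tiles in fed 1 and fed 4, and at 95.9 and 97.4 in fasted 2 and fasted 5. Ppara stood at 92.6, 89.3, 94.6 and 96.0, and Cpt1a at 88.2, 89.3, 89.0 and 91.5 in the same order. Ppargc1a was nearer the middle, at 57.7, 70.7, 67.9 and 73.7. Pank1 stood at 64.5 in fasted 2 and 79.6 in fasted 5. In fed 1 and fed 4, where it had no peak, it stood at 33.2 and 49.8, the shares of tiles likewise without a peak. The windows were chosen on covered length, so nothing is read from these percentiles.

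**Figure D4:**
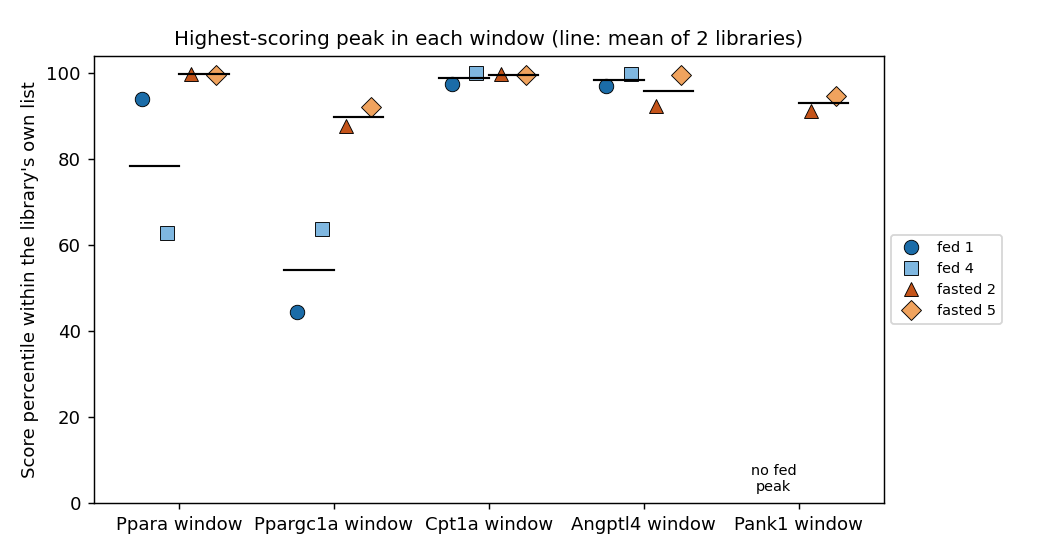
Score percentile, within its own list, of the highest-scoring peak in each window, with a point for each library and a line at each group's mean. At Cpt1a all libraries lie at 97.5 or above. The fasted points lie above the fed points at Ppara (99.9 and 99.6 against 93.9 and 62.7) and at Ppargc1a (87.6 and 92.1 against 44.4 and 63.8). The groups overlap at Angptl4, and at Pank1 there is no fed peak. How many tiles share the order of Ppara and Ppargc1a was not counted.

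The merged regions of the 5 windows were spread over the libraries much as all regions were. Of 42 regions, 7 had a peak in all 4 libraries (16.7%, against 16.1% of all regions) and 9 had peaks in the fasted pair alone (21.4%, against 19.3%). The latter were 3 at Pank1 and 2 each at Ppara, Ppargc1a and Cpt1a, with 0 at Angptl4. Without fed 1 the count was 14, without fasted 2 it was 21 and without fasted 5 it was 24, since fewer lists then decide it. No region had peaks in the fed pair alone, a pattern of 0.297% of all regions. At 7 of the 7 regions found in every library the fasted pair was the more covered without overlap, as at 91.3% of all such regions. The fasted score percentiles were both the higher at 4 of these 7, beside 47.3% of all such regions, and the fed percentiles were both the higher at none, beside 6.06%.

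Fed peaks at these loci overlapped fasted 2 peaks less often than fed peaks did over the lists, and fasted 5 peaks more often. Of the 31 fed 1 peaks, 26 (83.9%) overlapped a fasted 2 peak and 30 (96.8%) a fasted 5 peak, beside 85.5% and 85.1% over the list. Of the 14 fed 4 peaks, 11 (78.6%) overlapped a fasted 2 peak and 13 (92.9%) a fasted 5 peak, beside 87.7% and 87.3%. Peaks covered over their whole length numbered 22 of the fed 1 peaks in fasted 2 (71%) and 24 in fasted 5 (77.4%), beside 56.7% and 64% of the fed 1 list. They numbered 11 of the fed 4 peaks in fasted 2 (78.6%) and 12 in fasted 5 (85.7%), beside 70.3% and 74% of the fed 4 list. The windows were chosen on covered length, so nothing is read from these shares. At the main Cpt1a peak, the fasted 2 peak extended 2430 bp to the left and 232 bp to the right of that of fed 1, and 3241 and 1657 bp beyond that of fed 4.

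Making the lists equal changed the loci in different ways. With the 15504 top-scoring peaks of each library, fasted peaks still covered more than fed peaks in 5 of 5 windows, an order found in 68.7% to 77.5% of tiles with these lists. Fasted 2 and fasted 5 then still covered 68.9 and 78.4 Mb against 35.7 and 21.9 Mb in fed 1 and fed 4. Ppara then had 11.98 and 6.4 kb in fed 1 and fed 4, and 29.59 and 26.72 kb in fasted 2 and fasted 5; Pank1 kept 4.98 kb (fasted 2) and 16.96 kb (fasted 5). With top-scoring peaks that covered 21.9 Mb in each library, which leaves 2835 peaks of fasted 2 and 2616 of fasted 5 but all 15504 of fed 4, the order held in 2 windows, Ppara and Cpt1a, and was found in 17.5% of 95 kb, 17.7% of 90 kb, 17% of 45 kb and 17.9% of 145 kb tiles. Ppara had 6.81 and 6.4 kb in the fed and 23.15 and 26.72 kb in the fasted lists, and Cpt1a 6.14 and 6.34 against 8.81 and 8.75 kb. Angptl4 then had no peak in fasted 2, and 12.77 kb in fasted 5 against 9.33 and 8.64 kb in fed 1 and fed 4. Pank1 had none in fasted 2 and 6.47 kb in fasted 5, against 0 in both fed lists. At Ppargc1a fed 4, whose list is whole, kept 2.65 kb, and fed 1, fasted 2 and fasted 5 had no peak.

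**Figure D5:**
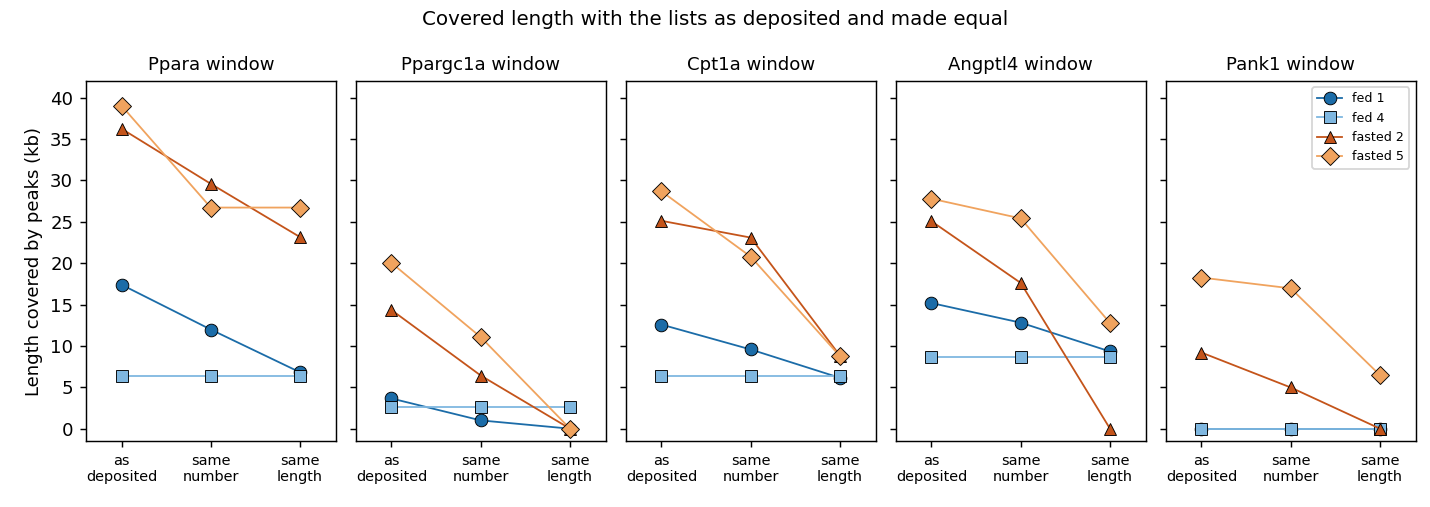
Length in kb covered by peaks in each window with the lists as deposited, reduced to the 15504 best-scoring peaks and reduced to best-scoring peaks that cover 21.9 Mb, with a line for each library. The fasted points stay above the fed points at Ppara and Cpt1a in all 3 settings, and at the same covered length fed 1, fasted 2 and fasted 5 are all at 0 at Ppargc1a.

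Joining the peaks of a library wherever the gap was 12.5 kb or less placed Ppara in a domain that reached beyond the window in 3 of the 4 libraries, all but fed 4. It spanned 110.6 and 10.9 kb in fed 1 and fed 4, and 153.1 and 165.7 kb in fasted 2 and fasted 5, and by bases covered it ranked 49th of 8922 domains, 834th of 6645, 32nd of 11949 and 13th of 14140. In fed 1, fasted 2 and fasted 5 the domain reached 80.7, 89.8 and 101.7 kb to the left of the window, the side on which Wnt7b is the neighbour in the RefSeq table. Most of the bases it covered lay there: 34.5 of 45.88 kb in fed 1, 58.1 of 94.38 kb in fasted 2 and 60.7 of 99.73 kb in fasted 5. The ranks in these lists are therefore not those of the window alone. Joined across 5000 bp at most, the main Ppara domain lay inside the window in every library, at 16.4, 10.9, 28.8 and 24.7 kb, and ranked 1208th, 620th, 932nd and 912th. Its size rested on the gap joined in fed 1, fasted 2 and fasted 5, and was the same with both gaps in fed 4. The Angptl4 domain spanned 31.1, 13.2, 41.3 and 42.4 kb in the same order of libraries, and that of Cpt1a 31.8, 8.3, 57.3 and 64.5 kb. The Cpt1a domain also reached to the left of its window, by 4.7, 18.5 and 18.8 kb in fed 1, fasted 2 and fasted 5. That of Angptl4 did so by 1.7 kb in fasted 2. The largest Ppargc1a domain, of 26.6 kb in fasted 2 and 27.6 kb in fasted 5, was 10.8 kb or less in the fed lists. The fasted lists covered 2.95 times as many bases as the fed lists. How often domains elsewhere were longer in both fasted lists was not counted, so nothing about these loci is read from that order.

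The window edges fell close to other peaks at some loci. A fed 1 peak at percentile 92.2 ended 1.8 kb before the Cpt1a window and a fasted 5 peak with the tied score 0.3 kb before it, while the first peaks inside stood at 19.3 and 51.6. At Ppara, fasted peaks began 0.3 kb after the window, at percentiles 76.0 and 70.3. A fed 1 peak at percentile 18.7 began 1.2 kb after that window, and the nearest of fed 4 lay 249.8 kb after it. At Ppargc1a, peaks at percentiles 87.0 in fed 1, 66.2 in fasted 2 and 78.6 in fasted 5 began 3.5 to 3.7 kb after the window.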

How the data were processed

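The submitters' processing notes list Bowtie 1.1.2, deepTools 1.5.11, SAMtools 1.9 and FastQC, and the build mm9, without settings. The peak names, per the file headers and names, point to MACS without a shifting model. Each deposited file held the peaks of a single H3K27ac library with the authors' score, whose scale is not stated and whose lowest value was 50; replicates were not pooled. The 4 input libraries were not analysed here.

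Positions count from 1. Peaks overlapping a window by 1 bp or more were kept whole. Regions were merged across libraries at 1 bp of overlap. Named regions were the 2 most covered per window, regions with peaks in the fed pair alone, and those with peaks in the fasted pair alone at percentile 75 or more in each. The genes, windows and rules were chosen with earlier results of these data known. The calculations used Python 3.11.15 and NumPy 2.4.6. Those of tile cover, covered bases, bases inside a window, score percentiles and merged regions were tested on simulated data. Sequencing depth is unknown. Other genes of the pathway were not analysed here, since the annotation used is for another build. Alternatives were score minimums of 100 and 200, equal lists, other window and merging rules, and leaving out each library.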

Additional observations from a re-analysis of the deposited data

How the results depend on the processing

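Differences are fasted minus fed means. No paired analysis was possible because the fed and fasted libraries share no replicate number. The alternatives for single loci and most for domains were chosen after seeing the data. Of 125 alternatives, 96 stayed within the spread between replicates or 1.5 times a count, or within counting error for the tile shares, 22 moved further and 7 changed sign. With all lists reduced to their 15504 best peaks, the difference in covered length over the 5 loci was 61.61 rather than 85.47 kb. That in peaks turned from 16.00 to -0.50. The difference in the length covered by the largest domain, as the median over loci, was 7.91 rather than 18.21 kb. Of the regions, 2 rather than 9 had peaks in the fasted pair alone. At the same covered length these were 20.18 kb, -5.50 peaks, -0.44 kb and 0 regions. There 2 rather than 5 loci kept the fasted above the fed libraries, Angptl4 turned to -2.60 kb, Ppargc1a to -1.32 kb, and the median highest percentile from 17.13 to -22.37, with a locus without a peak counted as 0. That setting keeps far fewer fasted than fed 4 peaks by construction. With the lists as deposited, the difference in the median highest percentile was 2.05 without fed 4 and 32.20 without fed 1. The share of covered bases was 0.0119 percentage points higher in fasted crypts. This difference was 0.0207 at a score minimum of 100, -0.1289 at 200 and 0.0921 at the same covered length. At 200, fed 4 kept only 640 peaks over 2.2 Mb, with 8.36 kb at the loci. There fed 1 had 18.37 kb of 14.4 Mb, fasted 2 had 81.69 kb of 66.0 Mb and fasted 5 had 107.80 kb of 89.2 Mb. The difference in share was 0.0060 without fasted 5 and 0.0071 without fed 1. The difference in peaks, 16.00 with all libraries, was 24.50 without fed 1 and 7.50 without fed 4. The difference in the median highest percentile was 50.75 at 100 and 62.50 at 200, where a locus without a peak again counted as 0. At both minimums fed 4 had no peak at Ppara, Ppargc1a and Pank1, so its median was 0. Fed 1 had none at Ppargc1a and Pank1. Merging across 500 bp left 5 regions with peaks in the fasted pair alone. Joining across 5000 bp gave a difference of 12.47 rather than 18.21 kb in the median length covered by the largest domain. Leaving out a library gave 10 to 24 regions with peaks in the remaining fasted lists alone, with 14 without fed 1, 21 without fasted 2 and 24 without fasted 5.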
